A study of Homo sapiens with 10 samples.

Results

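The heat shock proteins and their co-chaperones were followed through the differentiation of human embryonic stem cells into thyroid cells, as 37 genes chosen by name out of 28265 gene symbols in the count tables. All 37 passed the filter on low counts, as 21014 genes did in all. HSP70 proteins bind unfolded stretches of other proteins and release them in a cycle driven by ATP, J-domain proteins bring substrates and start the ATP hydrolysis, and HSP110 and BAG proteins exchange the nucleotide. HSP90 takes over part of these substrates, among them kinases and steroid hormone receptors such as the glucocorticoid receptor, together with its own co-chaperones. Heat shock factor 1 (HSF1) binds heat shock elements in the promoters of many of these genes and raises their transcription when unfolded proteins accumulate. The working label of the list calls it cytosolic, but HSPA9, HSPD1, HSPE1 and DNAJA3 act in mitochondria, HSPA13 is found in microsomes, and HSF1 and HSF2 are transcription factors.

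RNA was sequenced in bulk from cells sorted for green fluorescent protein (GFP) on day 16, 23, 31, 38 and 45, with 2 libraries per day and 10 in all. The cells came from a drug-selected human embryonic stem cell line in which GFP replaces part of one NKX2-1 allele and in which lentiviral NKX2-1 and PAX8 transgenes can be switched on by doxycycline; every group shares this background, the early Activin A treatment and the doxycycline pulse. The labels name cAMP for the first 3 days, TSH with dexamethasone (a glucocorticoid) for day 38, and TSH with SB (SB431542, an inhibitor of the TGFβ receptor kinase) for day 45. By the study's methods, dexamethasone was still present on day 45, the cells were in basal medium until day 16, cAMP was replaced close to day 31, and organoids were digested with enzymes at 37 °C before the sort. Day and medium changed together, so that the effect of time and that of each agent cannot be told apart. In sorted bulk cells, a change in the share of a cell type and a change in RNA per cell cannot be told apart either.

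The libraries held 7550260 and 8186969 counts on day 16, 8610133 and 8318446 on day 23, 9122044 and 8065086 on day 31, 10333933 and 9121301 on day 38, and 7247268 and 9592839 on day 45. Levels are given as CPM, counts scaled to a common library total, with library totals adjusted by trimmed mean of M values (TMM). A floor of 3 counts corresponded to 0.307 to 0.436 CPM and covers counting error only. Of 9 thyroid markers, 6 rose and 3 fell from day 16 to day 45. FOXE1 was the most abundant of them on day 16, at 897 and 630 CPM. PAX8 lay between 477 and 728 CPM in the 10 libraries and NKX2-1 between 58.1 and 157 CPM. Thyroglobulin (TG), the hormone precursor, was at 10.7 and 11.7 CPM on day 16, 178 to 212 CPM on days 23 and 31, 5547 and 4875 CPM on day 38, and 7964 and 7525 CPM on day 45. The sorted cells thus carried PAX8 and NKX2-1 transcripts in every library. Reads of the transgenes and of the endogenous genes were not told apart.

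The binding element of HSF1 was searched in 1 promoter window per gene, and other start sites were not searched. RefSeq promoter windows of 300 bases, reaching from 250 bases before the start site to just past it (GRCh38.p14), were found for 33 of the 37 genes, not for HSPA14, FKBP4, CRYAB and HSF1. The heat shock element was searched on both strands as 3 alternating units of GAA and TTC, starting with either, with 2 free bases between units. It occurred in 5 of the 33 promoters (15.2%) and in 172 of 35116 promoters in all (0.49%). The pair of units GAANNTTC, which the longer form contains, was present in 8 of the 33 (24.2%) against 6.77% of all promoters, and TTCNNGAA in 6 (18.2%) against 7.74%. The cAMP response element TGACGTCA was found in 0 of the 33 and in 1.85% of all promoters. The windows around the longer element are shown because their genes recur in the results below, with the element in capitals, 5′ to 3′ along the strand of the gene. The match starts 230 bases before the start site in the first HSPA8 window and 55 before it in the second, 60 before it in CHORDC1, 131 before it in DNAJB6, 74 before it in HSPA6, and 3 bases after it in DNAJA1.
HSPA8, chr11:123062334-123062386, minus strand: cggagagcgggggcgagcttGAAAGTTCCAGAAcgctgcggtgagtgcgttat
HSPA8, chr11:123062159-123062211, minus strand: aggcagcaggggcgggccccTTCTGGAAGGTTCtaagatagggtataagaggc
CHORDC1, chr11:90223067-90223129, minus strand: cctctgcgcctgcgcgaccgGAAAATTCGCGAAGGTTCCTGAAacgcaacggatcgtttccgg
DNAJA1, chr9:33025268-33025296, plus strand: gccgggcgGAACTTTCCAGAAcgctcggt
DNAJB6, chr7:157336853-157336905, plus strand: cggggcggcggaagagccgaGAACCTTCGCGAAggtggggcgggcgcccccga
HSPA6, chr1:161524446-161524498, plus strand: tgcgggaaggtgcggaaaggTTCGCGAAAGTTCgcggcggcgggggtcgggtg
In CHORDC1 the capitals span 3 overlapping matches. A match is a stretch of letters in this window and not evidence of binding.

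The most abundant transcripts per length were those of the 2 cytosolic HSP90 genes. The constitutive HSP90AB1 had a mean level of 340 CPM per kilobase of exon on day 16 and 409 on day 45, and the inducible HSP90AA1 had 100 and 314 CPM per kilobase. DNAJA1, a type A J-domain partner of HSP70, had 92.2 and 277 CPM per kilobase, and HSPA8, the constitutive HSP70, 69.9 and 212. Within the HSP110 family, HSPA4 was ahead of HSPH1 on day 16 (31.3 against 24.6 CPM per kilobase) and behind it on day 45 (43.2 against 80.1). PTGES3 (p23) led the HSP90 co-chaperones with 72.4 CPM per kilobase on day 45, HSPB1 the small heat shock proteins with 67.2, HSPD1 (HSP60) the mitochondrial chaperones with 51.6 and BAG3 the BAG proteins with 47.0. The classical stress-inducible HSPA6 was lowest in rank on day 16, where it had no counts, and had 1.33 CPM per kilobase on day 45. Parts of some exons also occur elsewhere in the genome, as 50-base stretches: 56.1% of those of HSPA6, 18.6% of HSP90AB1, 14.7% of HSP90AA1, 13.6% of PTGES3, 11.1% of HSPD1 and 9.58% of HSPA8. Levels of these genes are uncertain to that extent. HSPA8 also holds 2 small nucleolar RNA genes over 3.61% of its exon bases. Of the genes that return below, HSPH1 lies at chr13:31134973-31162388 on the minus strand, DNAJA1 at chr9:33025273-33039907, HSPB8 at chr12:119171555-119224855 and BAG3 at chr10:119651380-119677819, the last 3 on the plus strand (GRCh38, GENCODE release 44), and the reads counted are those over their exons.

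Over the 5 days, 28 of the 37 genes changed by edgeR's quasi-likelihood test of any difference between days, at an adjusted p under 0.05, against 36.3% of all genes tested and 51.4% of the 13115 genes with a mean of at least 5 CPM, a level that 35 of the 37 reached. The mean level was highest on day 45 for 28 of the 37, where 26.3% of all genes tested had their highest mean, and lowest on day 38 for 11, where 15.7% of all genes had their lowest. Together the 37 transcripts summed to 4107 and 4493 CPM on day 16, 5903 and 5800 on day 23, 5936 and 5523 on day 31, 4714 and 4480 on day 38, and 8318 and 9059 on day 45. The sum, which was not tested, was highest on day 45, where its libraries overlapped with those of no other day. It is carried by a few abundant genes: between day 31 and day 38 the mean levels of HSPH1, HSP90AB1, HSPA8, HSP90AA1 and DNAJA1 differed most, whereas the median log2 fold change of the 37 was -0.06 and 17 of the 37 had a positive value. The small nuclear RNA RN7SK took 6.82% and 7.11% of all counts on day 16, 4.40% and 4.42% on day 23, 2.92% and 3.86% on day 31, 8.17% and 6.76% on day 38, and 7.04% and 5.14% on day 45. The 10 most abundant genes of each library together took 11.7% and 13% on day 16, 8.53% and 9.09% on day 23, 7.29% and 8.29% on day 31, 16.4% and 13.6% on day 38, and 15.1% and 11.8% on day 45. The part of these shares in the summed levels was not tested. The heat map of all 37 genes shows that the course of the sum was not shared by every role.

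**Figure D1:**
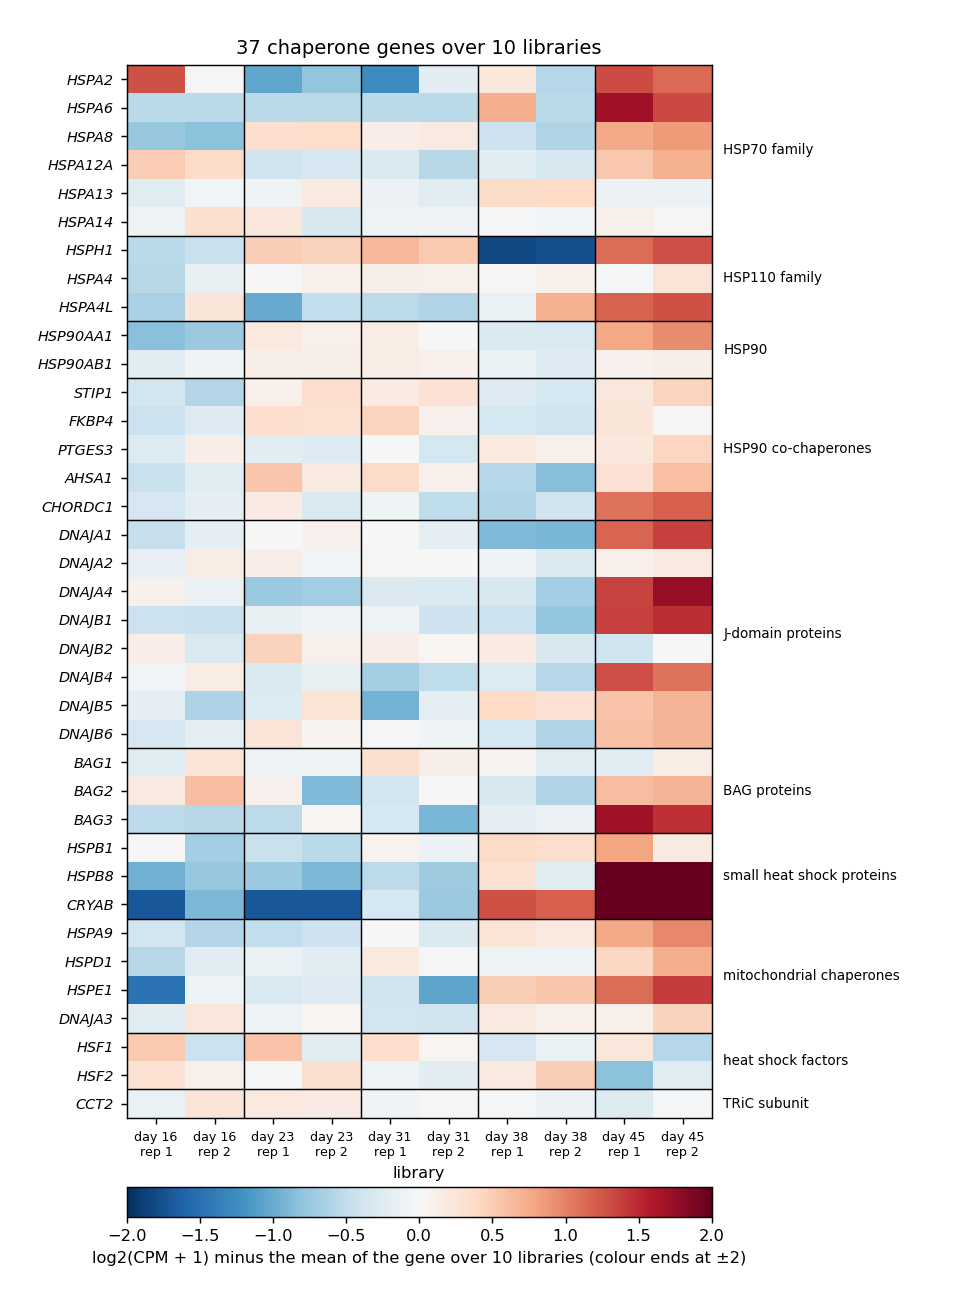
Each row is 1 of the 37 genes, grouped by role, and each column 1 of the 10 libraries; the colour gives log2(CPM + 1) minus the mean of that gene over the 10 libraries and ends at ±2. Red cells gather in the 2 columns of day 45, HSPH1 and DNAJA1 are blue on day 38, and HSPB8 and CRYAB pass the end of the scale on day 45.

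Between day 16 and day 23, single genes of HSP70, HSP110 and HSP90 and 3 of the 5 HSP90 co-chaperones rose, while the testis-enriched HSP70 gene HSPA2 fell. Of the 37 genes 6 rose and 1 fell (16.2% and 2.7%), where 5.60% of all genes tested rose and 5.33% fell. Among genes with a mean of at least 5 CPM, 8.52% rose and 7.80% fell. With DESeq2, or with edgeR on library size alone, 10 of the 37 were called higher and 1 lower, DNAJA1 and DNAJB6 among those gained. The libraries of the 2 days did not overlap for 18 of the 37 and for 48.3% of all genes tested. HSPA8 was at 346 and 332 CPM on day 16 and at 738 and 748 CPM on day 23, which is 2.19-fold higher (log2 fold change 1.13, SE 0.11, adjusted p = 4.8e-09 by edgeR). HSPH1 (HSP110), which exchanges the nucleotide of HSPA8, went from 198 and 214 CPM to 407 and 402 CPM (log2 fold change 0.97, SE 0.12). Both genes about doubled, with no overlap between the days. HSP90AA1 went from 493 and 527 CPM to 1011 and 940 CPM (log2 fold change 0.93, SE 0.11). AHSA1, the activator of HSP90's ATPase, went from 36.3 and 42.4 to 74.3 and 56.7 CPM (log2 fold change 0.74, SE 0.21). The other 2 that rose were the adaptor STIP1 (HOP), which hands substrates from HSP70 to HSP90, and the immunophilin FKBP4, by 0.70 and 0.66 on the log2 scale. In the same roles, HSP90AB1 (log2 fold change 0.28, SE 0.11, edgeR adjusted p = 0.093), CHORDC1 (0.22, SE 0.17), PTGES3 (-0.18, SE 0.15), HSPA4 (0.40, SE 0.14) and HSPA4L (-0.63, SE 0.33) did not pass, although DESeq2 called HSP90AB1 and HSPA4. HSPA2 was at 18.9 and 7.02 CPM on day 16 and at 2.99 and 3.77 CPM on day 23 (log2 fold change -1.93, SE 0.54, adjusted p = 0.016 by edgeR). Its 2 libraries of day 16 lay far apart, and the call was lost without day 16 replicate 1 and without either library of day 23. The count of 7 became 4 without day 23 replicate 1 and 4 without day 23 replicate 2, and HSPA8, HSPH1 and HSP90AA1 were called in each of these fits. AHSA1 and FKBP4 also lost their call without day 16 replicate 1.

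From day 23 to day 31, both still in cAMP by the labels, 1 of the 37 genes passed the test (2.7%, with 2.25% of all genes tested, 1.58% higher). That gene was CRYAB (αB-crystallin), a small heat shock protein abundant in lens and muscle, with 0 counts in both libraries of day 23 and 15 and 8 counts on day 31. Against a floor of 3 counts per library it was at least 3.65-fold higher (edgeR adjusted p = 0.020). The call rested on few reads and was lost without day 23 replicate 1, without day 23 replicate 2 or without day 31 replicate 1. None fell by this test, where 1 of the 37 had an unadjusted p under 0.05 with a lower level and DESeq2 also called 0 lower. The range of the fitted log2 fold changes of the 37 ran from -0.60 to 6.43 with a median of -0.04. The libraries of the 2 days did not overlap for 17 of the 37 genes, 8 higher and 9 lower, and for 39.3% of all genes tested.

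Between day 31 and day 38, TSH and dexamethasone replaced cAMP by the labels. In this interval both HSP90 genes, 3 of the 5 HSP90 co-chaperones, HSPA8, DNAJA1 and HSPH1 fell, HSPH1 furthest. Of the 37, 8 fell and 4 rose (21.6% and 10.8%), where 6.23% of all genes tested fell and 8.80% rose. Among genes with a mean of at least 5 CPM, 9.21% fell and 13.1% rose, so that the share that rose was not above that of such genes. HSPH1 was at 456 and 417 CPM on day 31 and at 82.5 and 85.3 CPM on day 38, a level 5.20-fold lower (log2 fold change -2.38, SE 0.13, adjusted p = 3.4e-16 by edgeR). Its level on day 38 was also below both libraries of day 16. AHSA1 went from 65.5 and 53.4 CPM to 33.2 and 27.1 CPM (log2 fold change -0.98, SE 0.21). DNAJA1 went from 304 and 271 CPM to 166 and 162 CPM (log2 fold change -0.81, SE 0.13), and HSPA8 from 641 and 663 CPM to 438 and 386 CPM (log2 fold change -0.66, SE 0.11). FKBP4, itself a co-chaperone of steroid hormone receptors, fell by 0.66 on the log2 scale, STIP1 by 0.54, HSP90AA1 by 0.38 and HSP90AB1 by 0.32. All 6 genes that had risen between day 16 and day 23 were among these 8. The comparisons share no library but come from the same fit. How many of all genes tested took this course was not counted. In all 8 genes the libraries of the 2 days did not overlap, as in 29 of the 37 and in 57.0% of all genes tested.

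Of the 4 genes that rose on day 38, HSPA4L and HSPA13 are of families in which another gene fell, HSPH1 and HSPA8. HSPE1 (HSP10), the lid of the mitochondrial HSP60 chamber, was at 9.21 and 5.47 CPM on day 31 and at 17.9 and 18.7 CPM on day 38 (log2 fold change 1.31, SE 0.41). HSPA4L, a second HSP110 paralog, was at 13.8 and 13 CPM and then at 18.4 and 33.8 CPM (log2 fold change 0.95, SE 0.33, edgeR adjusted p = 0.045). In 11 of 19 alternatives HSPA4L did not pass. HSPA13 was at 109 and 101 CPM and then at 153 and 155 CPM (log2 fold change 0.56, SE 0.15). CRYAB had 15 and 8 counts on day 31 and 63 and 55 counts on day 38 (log2 fold change 2.40, SE 0.79). With scaling by library size alone, which lowered the median of all genes tested by 0.20 on the log2 scale in this comparison, 0 of the 37 rose and 11 fell in edgeR, and with upper-quartile factors or DESeq2 3 rose and 9 fell. HSPA13, HSPE1 and CRYAB kept their call with upper-quartile factors and DESeq2 and lost it with library size alone, HSPA4L lost it under all 3, and HSPH1, DNAJA1 and HSPA8 fell under each of these scalings. The count of 12 was 7 without day 31 replicate 1, 6 without day 31 replicate 2, 5 without day 38 replicate 1 and 3 without day 38 replicate 2, and the 3 that were left in the last of these were HSPH1, DNAJA1 and HSPA8.

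**Figure D2:**
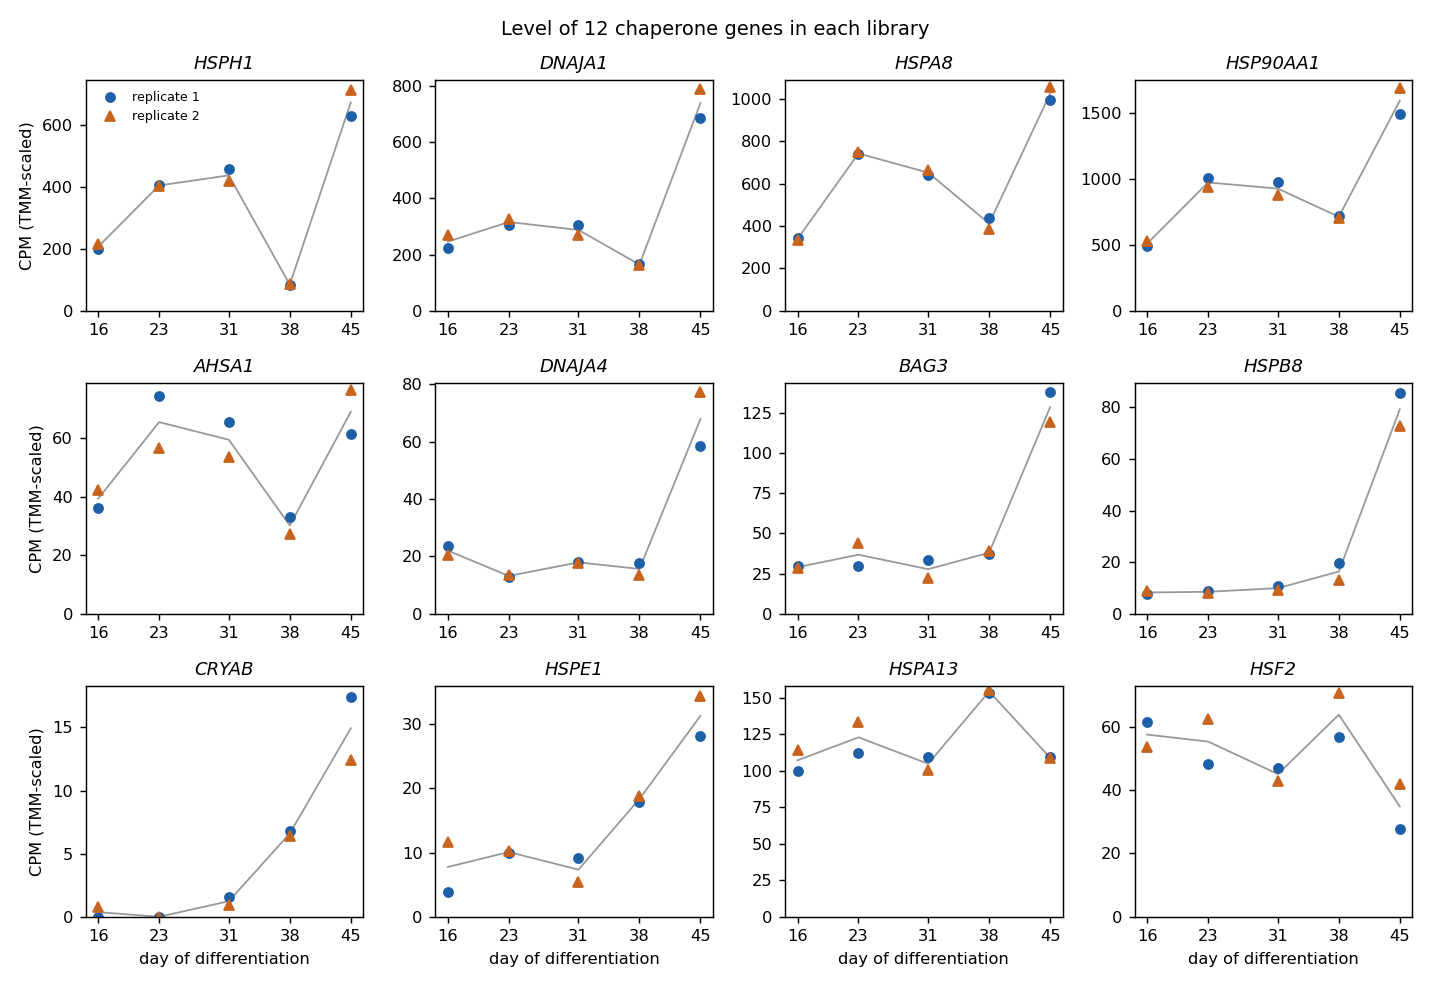
TMM-scaled CPM on a linear axis from 0 in each of the 10 libraries, against the day of differentiation, for 12 of the genes named in the text; the grey line joins the means of the 2 libraries of a day. HSPH1, DNAJA1, HSPA8, HSP90AA1 and AHSA1 are lower on day 38 than on day 31 and higher again on day 45, DNAJA4, BAG3 and HSPB8 stand high on day 45 and low before, and HSPA13 peaks on day 38.

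The study's text starts SB431542 on day 38 in one passage and on the day before in another. It is therefore not settled here whether the libraries of day 38 had already received it. Between day 38 and day 45 the genes that rose included HSPH1, HSPA8, HSP90AA1, BAG3, HSPB8, 5 of the 8 J-domain proteins, 3 of the 5 HSP90 co-chaperones and 2 of the 4 mitochondrial chaperones. Of the 37, 16 rose and 2 fell (43.2% and 5.4%), where 4.85% of all genes tested rose and 6.35% fell. Among genes with a mean of at least 5 CPM, 7% rose and 9.80% fell. The median log2 fold change of the 37 was 0.77, beside -0.02 for all genes tested, and 33 of the 37 had a positive one. The libraries of the 2 days did not overlap for 30 of the 37 genes, 28 of them higher on day 45, where 54.8% of all genes tested did not overlap in either direction. Because this comparison and that of day 38 with day 31 use the same 2 libraries of day 38, a level that was low by error in those libraries would enter both with opposite signs, and their values are given side by side only.

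HSPH1 had the largest log2 fold change of the 37. It was at 82.5 and 85.3 CPM on day 38 and at 630 and 714 CPM on day 45, 8.01-fold higher (log2 fold change 3.0, SE 0.13, adjusted p = 9.1e-18 by edgeR). This level was also above the 407 and 402 CPM of day 23 and the 456 and 417 CPM of day 31, so that both libraries of day 45 were the highest of all 10. HSPA4L was at 18.4 and 33.8 CPM and then at 47.2 and 50.5 CPM (log2 fold change 0.91, SE 0.32) and HSPA4 (log2 fold change 0.06, SE 0.14) at 205 and 216 and then 198 and 241 CPM, and neither passed the test. HSPA4L passed it in 7 of 19 alternative fits, with log2 fold changes from 0.90 to 1.41.

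J-domain proteins gave 5 of the 16 increases. DNAJA1 was at 166 and 162 CPM on day 38 and at 689 and 792 CPM on day 45 (4.51-fold, log2 fold change 2.17, SE 0.13, edgeR adjusted p = 6.3e-14). DNAJA4, a relative whose transcript is induced by heat and by sterol depletion, was at 17.6 and 13.6 CPM and then at 58.5 and 77.3 CPM (4.35-fold, log2 fold change 2.12, SE 0.28). DNAJB1 (HSP40), the type B partner that works with HSP70 and HSP110 in dissolving aggregates, was at 64.6 and 50.2 CPM and then at 228 and 246 CPM (4.13-fold, log2 fold change 2.04, SE 0.17). These 3 were about 4-fold higher, with both libraries of day 45 above all libraries of the earlier days. DNAJB4, a close relative of DNAJB1, went from 55.8 and 45.5 CPM to 168 and 145 CPM (log2 fold change 1.63, SE 0.18). DNAJB6, which holds back the growth of polyglutamine and amyloid fibres, went from 78.4 and 65.4 CPM to 151 and 161 CPM (log2 fold change 1.12, SE 0.16). DNAJA2, DNAJB2 and DNAJB5 had log2 fold changes of 0.32 (SE 0.16), -0.13 (SE 0.29) and 0.30 (SE 0.37) and did not pass. Of the 5, DNAJA1 and DNAJB6 have a 3-unit heat shock element in the promoter windows searched, and DNAJA4, DNAJB1 and DNAJB4 do not. Among the other genes that rose, HSPA8 and CHORDC1 have it. HSPH1, BAG3, HSPB8, HSP90AA1, HSPA9, HSPA12A, HSPD1, STIP1 and AHSA1 do not have it in the windows searched. Other start sites of these genes, as of DNAJA4, DNAJB1 and DNAJB4, were not searched, so an element there would have been missed.

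BAG3 and HSPB8 act together in chaperone-assisted selective autophagy, in which HSP70 clients are handed to the autophagosome. HSPB8 was at 7.61 to 10.6 CPM in all 6 libraries up to day 31, at 19.5 and 13.2 CPM on day 38, and at 85.7 and 73 CPM on day 45 (4.84-fold over day 38, log2 fold change 2.27, SE 0.29, edgeR adjusted p = 6.5e-07). BAG3 lay between 22.1 and 44 CPM in the 8 libraries up to day 38 and at 138 and 119 CPM on day 45 (3.38-fold, log2 fold change 1.76, SE 0.22, edgeR adjusted p = 5.3e-07). Neither range touched that of day 45. Of the other BAG proteins, BAG1 (log2 fold change 0.06, SE 0.27) was at 29.4 and 23.6 CPM and then 24 and 31.3 CPM. BAG2, an inhibitor of the ubiquitin ligase CHIP, was at 9.61 and 7.80 CPM and then 19.3 and 20.2 CPM (log2 fold change 1.18, SE 0.40, edgeR adjusted p = 0.054), and it passed the test in 11 of 19 alternative fits, DESeq2 and the replicate block among them. Of the exon bases of BAG2, 44.2% overlap genes on the opposite strand, and the strand setting of the counting is not given in the sources used here. HSPB1 (HSP27), the most abundant small heat shock protein, was at 100 and 97.5 CPM and then 132 and 86.5 CPM, with overlapping days. CRYAB had 63 and 55 counts and then 120 and 114 counts and did not pass either (log2 fold change 1.17, SE 0.72).

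The main HSP70 and the inducible HSP90 rose as well. HSPA8 was at 438 and 386 CPM on day 38 and at 996 and 1055 CPM on day 45 (2.49-fold, log2 fold change 1.32, SE 0.11, edgeR adjusted p = 1.7e-10). HSP90AA1 was at 720 and 708 CPM and then at 1500 and 1697 CPM (2.24-fold, log2 fold change 1.16, SE 0.11). The constitutive HSP90AB1 was at 1035 and 946 CPM and then at 1203 and 1233 CPM (log2 fold change 0.30, SE 0.11, edgeR adjusted p = 0.066; called in 7 of 19 alternative fits, with DESeq2 at adjusted p = 0.00018), within the range of its levels on days 23 and 31 or just below. HSPA12A, an atypical HSP70, rose by 0.94 on the log2 scale at an adjusted p of 0.049 that was lost without any one of the 4 libraries compared. HSPA13 was lower again at 109 and 109 CPM (log2 fold change -0.50, SE 0.15), a call lost without any one of the same 4 libraries. HSPA14, which sits at the ribosome, was at 45.5 and 44.6 CPM and then 49.8 and 47.1 CPM. HSPA2 was at 8.53 and 4.54 CPM and then at 19.5 and 17.0 CPM (log2 fold change 1.48, SE 0.52, edgeR adjusted p = 0.064). HSPA2 thus did not pass, but it did without a filter on low counts, with only the 4 libraries compared and with the replicate block. HSPA6 had 13 and 0 counts on day 38, 25 and 24 counts on day 45 and 0 counts in all 6 earlier libraries.

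Among the HSP90 co-chaperones, CHORDC1 (morgana) was at 64.9 and 74.9 CPM on day 38 and at 210 and 226 CPM on day 45 (3.12-fold, log2 fold change 1.64, SE 0.17, edgeR adjusted p = 1.1e-08). It ranged from 64.9 to 110 CPM in the 8 earlier libraries. AHSA1 went from 33.2 and 27.1 CPM to 61.6 and 76.5 CPM (log2 fold change 1.2, SE 0.22) and STIP1 from 81.8 and 75.8 CPM to 114 and 132 CPM (log2 fold change 0.65, SE 0.16). Both returned to about their levels of days 23 and 31, whereas CHORDC1 rose above all earlier libraries. STIP1 lost its call without day 38 replicate 2 or day 45 replicate 2. FKBP4 had a log2 fold change of 0.52 (SE 0.19) and PTGES3 of 0.18 (SE 0.15), and neither passed. Of the mitochondrial chaperones, HSPD1 rose from 247 and 250 CPM to 351 and 437 CPM (log2 fold change 0.67, SE 0.14) and HSPA9 (mortalin) from 278 and 263 CPM to 389 and 449 CPM (log2 fold change 0.63, SE 0.13), and the call of HSPD1 was lost without day 45 replicate 2. HSPE1 was at 17.9 and 18.7 CPM and then at 28.2 and 34.4 CPM without passing the test (log2 fold change 0.77, SE 0.39). HSPD1 and HSPE1 lie head to head, and 10.5% of the HSPE1 exon bases overlap the read-through gene HSPE1-MOB4 on the same strand and 7.41% HSPD1 on the other. DNAJA3, the mitochondrial J-domain protein, had a log2 fold change of 0.16 (SE 0.28), and all of its stretches also lie on an alternate contig.

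Neither heat shock factor passed as higher on day 45, and HSF2 fell. HSF1 was at 24.3 and 28.1 CPM on day 38 and at 36.1 and 20.4 CPM on day 45 (log2 fold change 0.11, SE 0.31), with overlapping libraries. HSF2 fell from 56.8 and 70.7 CPM to 27.7 and 41.8 CPM (log2 fold change -0.87, SE 0.22, edgeR adjusted p = 0.0070). That fall did not pass without day 38 replicate 2 or without day 45 replicate 1. CCT2, a subunit of the cytosolic chaperonin TRiC that folds actin and tubulin, was at 163 and 154 CPM and then at 138 and 163 CPM (log2 fold change -0.07, SE 0.15).

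**Figure D3:**
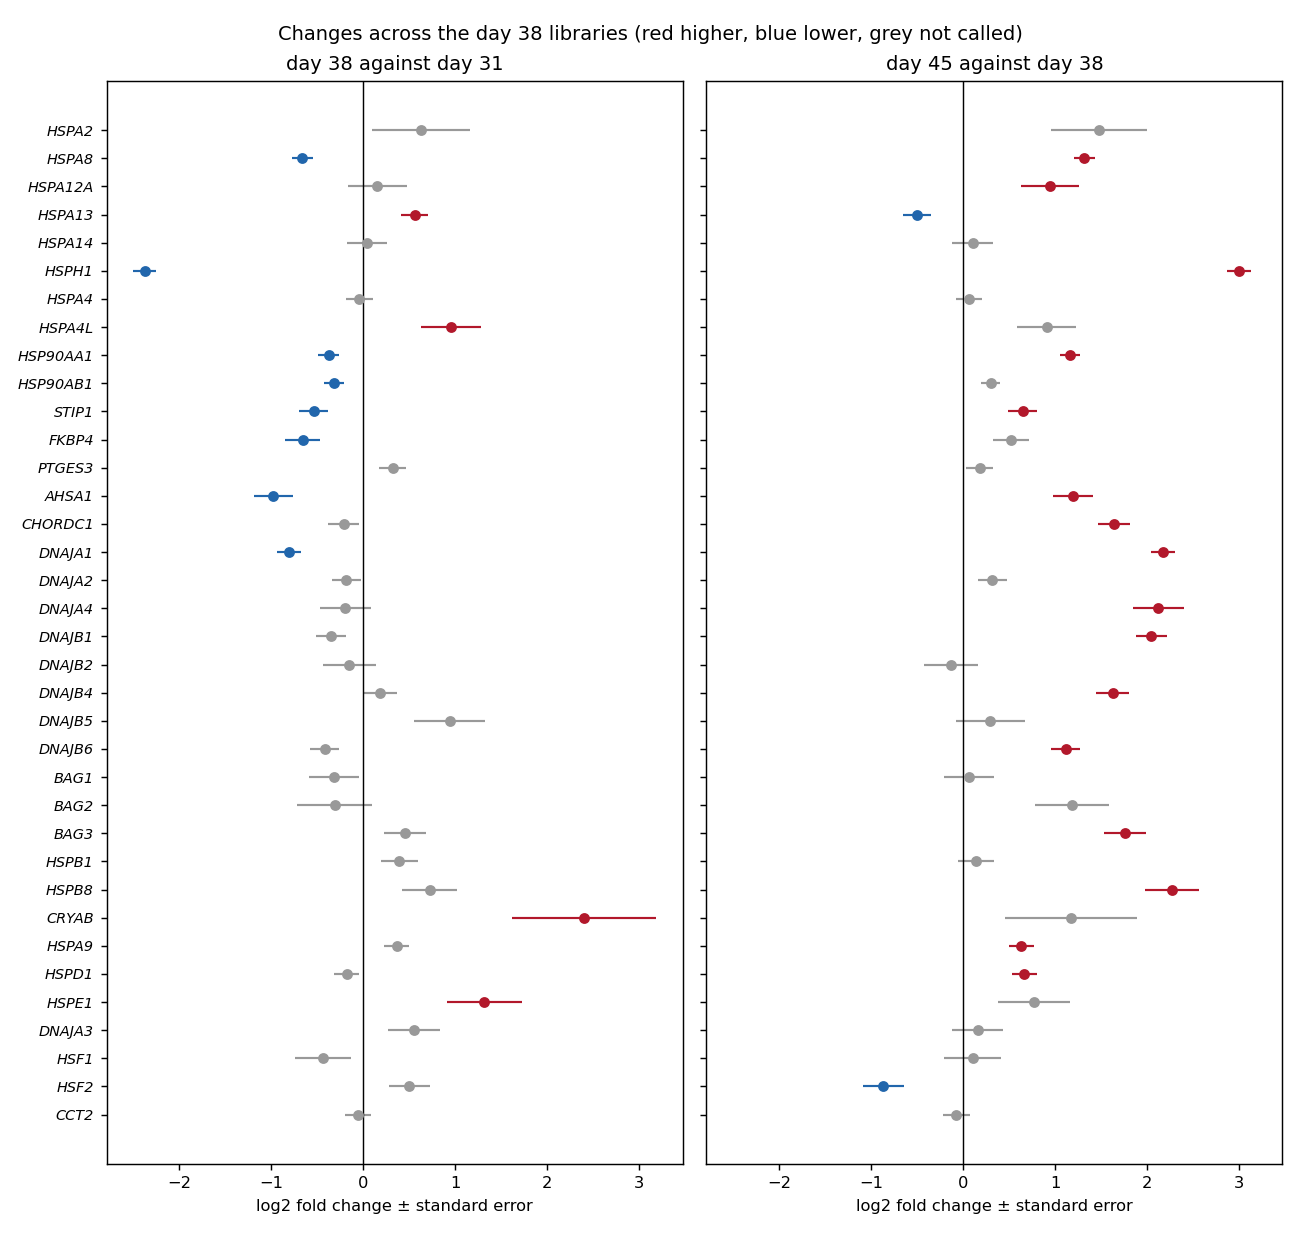
Log2 fold change with its standard error for every gene of the list except HSPA6 (0 counts in most libraries), day 38 against day 31 on the left and day 45 against day 38 on the right, in the order of roles; red points rose, blue points fell and grey points did not pass the edgeR test. HSPH1 lies at -2.38 on the left and at 3.0 on the right; the panels share the 2 libraries of day 38.

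Against the starting point, 21 of the 37 genes were higher on day 45 than on day 16 and 1 was lower (56.8% and 2.7%), where 12.9% of all genes tested were higher and 11.7% lower. Among genes with a mean of at least 5 CPM, 18.1% were higher and 17.0% lower. The median log2 fold change of the 37 was 0.82, beside 0 for all genes tested. The libraries of the 2 days did not overlap for 27 of the 37 and for 57.8% of all genes tested. CRYAB had 0 and 6 counts on day 16 and 120 and 114 counts on day 45 (fitted log2 fold change 5.27, SE 0.93, edgeR adjusted p = 3.6e-05). Its level on day 16 was near the floor of 3 counts per library. HSPB8 was at 7.61 and 8.87 CPM and then at 85.7 and 73 CPM (9.61-fold, log2 fold change 3.26, SE 0.31). BAG3 was at 29.4 and 28.6 CPM and then at 138 and 119 CPM (4.44-fold, log2 fold change 2.15, SE 0.23). HSPE1 was at 3.80 and 11.7 CPM and then at 28.2 and 34.4 CPM (4.03-fold, log2 fold change 2.01, SE 0.42). The libraries of day 16 decide the size of both values: without replicate 1 of that day the log2 fold change of HSPE1 was 1.41 and that of CRYAB 4.30, and without replicate 2 that of HSPE1 was 3.04, while CRYAB was left with 0 counts on day 16. The third small heat shock protein, HSPB1, was higher by 0.82 on the log2 scale (SE 0.20), a call lost without day 16 replicate 2 or without day 45 replicate 1. Of the CRYAB exon bases, 13.6% overlap HSPB2 and its read-through gene on the opposite strand. HSPA6 was at least 8.34-fold higher than a floor of 3 counts per library on day 16. Its edgeR adjusted p of 0.0501 did not pass, but HSPA6 passed without a filter on low counts and with only the 4 libraries compared. HSF2 was the 1 gene that was lower, from 61.5 and 53.4 CPM to 27.7 and 41.8 CPM (log2 fold change -0.72, SE 0.22), a call lost without day 16 replicate 1 or day 45 replicate 1. HSP90AB1 was at 965 and 1060 CPM and then at 1203 and 1233 CPM (log2 fold change 0.27, SE 0.11, edgeR adjusted p = 0.065), and DESeq2 called it (adjusted p = 0.0013).

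**Figure D4:**
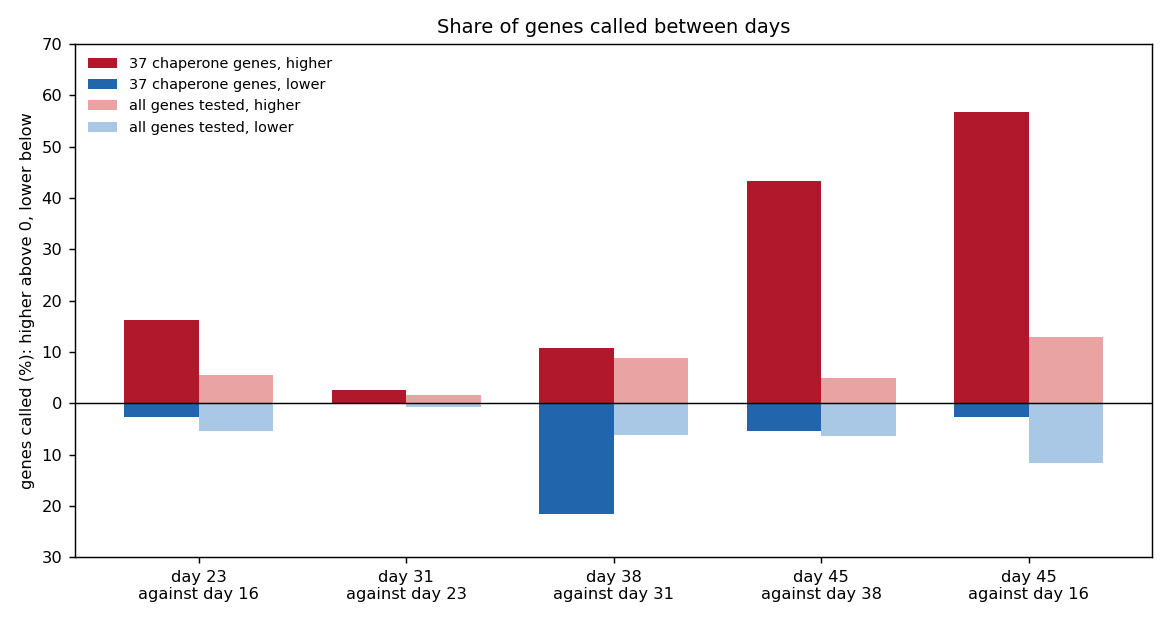
Percent of genes called by edgeR at an adjusted p under 0.05 in each comparison, higher above the 0 line and lower below it, for the 37 chaperone genes (dark bars) and all 21014 genes tested (pale bars). On day 45 against day 38 the bars for higher genes stand at 43.2% and 4.85%, and on day 38 against day 31 the bars for lower genes at 21.6% and 6.23%.

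The 9 genes that did not pass the test over all days were HSPA4, HSPA14, DNAJA2, DNAJA3, DNAJB2, BAG1, BAG2, HSF1 and CCT2. HSPA4 did pass in the direct comparison of day 45 with day 16, with 136 and 182 CPM and then 198 and 241 CPM (log2 fold change 0.47, SE 0.14, edgeR adjusted p = 0.015), a call lost without day 16 replicate 1 or day 45 replicate 2. The call of HSPA4 was also lost with library size alone and with only the 4 libraries compared. CCT2 ranged from 138 to 200 CPM over the 10 libraries and DNAJA2 (DNAJA1's paralog) from 82.8 to 114 CPM. DNAJA1, by contrast, ranged from 162 to 792 CPM. PTGES3 passed the test over all days but none of the 5 comparisons of pairs of days, with levels between 153 and 265 CPM.

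Genes of neighbouring chaperone systems that are not among the 37 were read in the same fit, here between day 38 and day 45, where 4.85% of all genes tested rose and 6.35% fell. Of the other TRiC subunits 1 of 7 rose, TCP1 by 0.62 on the log2 scale. Of 18 further HSP90 and HSP70 co-chaperones 2 rose, SUGT1 by 0.51 and TOMM70 by 0.69. Of 17 other J-domain proteins 1 rose, DNAJC3 by 0.47, and 1 fell, DNAJC10 (log2 fold change -0.52), and both work in the endoplasmic reticulum (ER). Of 10 further mitochondrial chaperones 1 fell, GRPEL2 (log2 fold change -0.89). Of 13 other genes listed here as induced through HSF1, 5 rose and 1 fell, with a median log2 fold change of 0.66. TCP1 and DNAJB9, which also stands on the list of ER chaperones, were among the 5. ZFAND2A, a regulator of the proteasome under arsenite stress, was at 7.67 and 8.27 CPM on day 38 and at 16.6 and 32.4 CPM on day 45 (log2 fold change 1.62). JMJD6 was at 23.5 and 18.5 CPM and then at 50.2 and 50.7 CPM (log2 fold change 1.26), and the collagen chaperone SERPINH1 (HSP47) fell from 374 and 333 CPM to 288 and 248 CPM (log2 fold change -0.40). DNAJB9, TCP1, CACYBP, HSPA1A and HSPA1B stand on 2 of these lists, and the frequency of calls was not compared between lists. In the comparison of day 38 with day 31, where 8.80% of all genes tested rose, 3 of 11 further heat shock family genes did, HSPB7, HSF4 and HSBP1. HSF4, the factor of the lens, had 0 and 5 counts on day 31 and 98 and 121 counts on day 38 (fitted log2 fold change 5.40, SE 0.93). Its level on day 31 was near the floor of 3 counts, so that the size of the fitted value is uncertain. Of 5 prefoldin subunits, which pass actin and tubulin to TRiC, 1 rose in that comparison, PFDN5 by 0.62 on the log2 scale. Between day 38 and day 45 edgeR called 0 of the 11 heat shock family genes and 0 of the 5 prefoldin subunits, as did DESeq2, and at an unadjusted p under 0.05 edgeR had 2 heat shock family genes higher and 0 lower, and 0 prefoldin subunits either way.

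HSPA1A and HSPA1B, the major stress-inducible HSP70 genes, had few counts. HSPA1A had 1 to 17 counts in the 10 libraries. HSPA1B had 5 to 18 counts up to day 38 and 52 and 57 counts on day 45, at 7.55 and 6.23 CPM. It rose from day 16 to day 45 (log2 fold change 3.06, SE 1.12, edgeR adjusted p = 0.042), a call missing in 8 of 19 alternatives: with library size alone, with the replicate block and without any 1 library of days 16, 38 or 45. The 2 genes are near copies of each other, so that 75.0% and 71.6% of their 50-base stretches recur elsewhere in the genome, and 97.9% and 98.0% of the stretches also lie on alternate contigs. The levels of these 2 genes are therefore uncertain.

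ER chaperones, which fold secreted proteins such as thyroglobulin, moved mainly between day 31 and day 38. Of 12 listed, 9 rose and 0 fell in edgeR between day 31 and day 38, where 8.80% of all genes tested rose, and their median log2 fold change was 0.73. DNAJB9, a J-domain partner of BiP, was at 33.2 and 25.9 CPM on day 31 and at 92.9 and 94 CPM on day 38 (log2 fold change 1.66). HSPA5 (BiP), the HSP70 of the ER, lay between 257 and 315 CPM in the 6 libraries up to day 31, at 870 and 799 CPM on day 38 and at 943 and 1004 CPM on day 45 (log2 fold change of day 38 against day 31, 1.46). Its HSP90 counterpart HSP90B1 (GRP94), added after its values were seen, was at 660 and 679 CPM on day 31, 1344 and 1335 CPM on day 38, and 1179 and 1353 CPM on day 45 (log2 fold change of day 38 against day 31, 1.00). Between day 38 and day 45, 2 of the 12 rose, DNAJB9 and DNAJB11, and 1 fell, PDIA4, with a median log2 fold change of -0.08. HSPA8 and HSP90AA1 were thus lower on day 38 than on day 31 in the same libraries in which their ER relatives were higher.

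Other gene lists that can move with chaperone transcripts also differed between days. Genes of the dissociation response, which enzymatic digestion induces, summed to 7344 and 6721 CPM on day 38 and 5275 and 4916 CPM on day 45, with EGR1 the most abundant, at 2225 and 2028 CPM and then 1132 and 1029 CPM. Of 11 tested 5 fell and 4 rose between these days: FOS was at 1518 and 1401 CPM and then at 382 and 338 CPM, while FOSB, ATF3, KLF6 and ZFP36 were higher. IER3 had 0 counts in some libraries. Proliferation markers summed to 760 and 734 CPM on day 38 and 399 and 545 CPM on day 45, led by TOP2A, and 4 of 10 fell. Fibroblast markers, led by COL3A1, summed to 1461 and 1730 CPM on day 31, 4233 and 4459 CPM on day 38, and 4459 and 3571 CPM on day 45, and 4 of 8 rose and 1 fell from day 31 to day 38 while 3 rose from day 38 to day 45. Cardiac and skeletal muscle markers, which matter because CRYAB and HSPB8 are abundant in muscle, summed to 1812 and 1763 CPM on day 31, 1457 and 1671 CPM on day 38, and 1331 and 1610 CPM on day 45. Their most abundant gene was TTN. Of these 12 markers 7 rose and 1 fell from day 31 to day 38, and 1 rose from day 38 to day 45. The sums are carried by TTN, which fell (log2 fold change -0.65), and the muscle markers MYH6, DES and RYR2 rose: MYH6 was at 19.8 and 11.3 CPM on day 31, 97.9 and 87.1 CPM on day 38, and 73.9 and 98.3 CPM on day 45, and DES at 5.32 and 10.0 CPM, 52.1 and 55.3 CPM, and 50.8 and 41.6 CPM. Smooth muscle markers, led by MYL9, summed to 146 and 151 CPM on day 31, 176 and 169 CPM on day 38, and 234 and 198 CPM on day 45, and 3 of 5 rose from day 31 to day 38 and 1 of 5 from day 38 to day 45. Airway basal markers summed to 11 and 23.5 CPM on day 31, 30.3 and 24.3 CPM on day 38, and 55.0 and 42.8 CPM on day 45, led by KRT5 on these later days, and 1 of 4 rose from day 38 to day 45. Goblet markers summed to 4.61 and 6.05 CPM on day 31, 50 and 36.6 CPM on day 38, and 105 and 56.6 CPM on day 45, and 2 of 4 rose from day 31 to day 38, while 1 rose and 1 fell from day 38 to day 45. Of 9 thyroid markers 5 rose from day 31 to day 38, and 2 rose and 3 fell from day 38 to day 45. From day 16 to day 23, 6 thyroid markers rose and 2 fell, 3 fibroblast markers rose and 2 fell, and 4 proliferation markers fell. In that step 1 cardiac and skeletal muscle marker rose and 4 fell. From day 16 to day 45, 6 thyroid markers rose and 3 fell, 6 fibroblast markers rose and 1 fell, and 5 proliferation markers fell. Over that span 6 cardiac and skeletal muscle markers rose and 1 fell, and all 5 smooth muscle markers rose. The part of any of these lists in the chaperone levels was not tested.

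**Figure D5:**
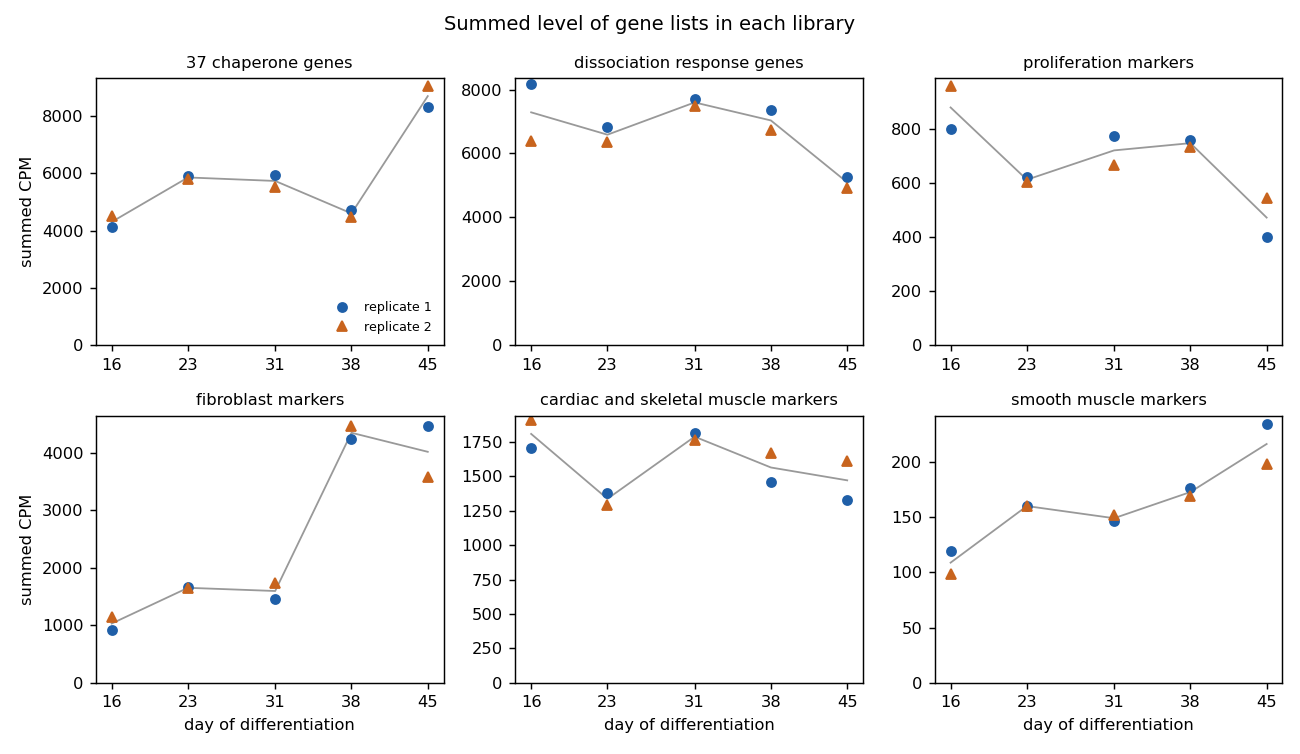
Summed TMM-scaled CPM of the 37 chaperone genes and of 5 other gene lists in each of the 10 libraries, on linear axes from 0, against the day of differentiation; grey lines join the means of the 2 libraries of a day. The chaperone sum is highest on day 45, at 8318 and 9059 CPM, where the dissociation response and proliferation lists have their lowest sums. Of 11 dissociation response genes tested, 5 fell and 4 rose from day 38 to day 45, so that the sum does not speak for each gene. The fibroblast sum steps up between day 31 and day 38.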

How the data were processed

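Bulk RNA-seq of sorted cells gave 10 tables of whole-number read counts per gene, deposited by the authors. By the submitters' processing notes and the study's methods, reads were trimmed with Trimmomatic, aligned with HISAT2 to GRCh38.p13 and counted with HTSeq; versions and strand setting are not given in the sources used here. Days came from the sample titles. Counts were tested with edgeR 4.0.16 in R 4.3.3 (glmQLFit and glmQLFTest, TMM factors, 1 mean per day over all 10 libraries, 5 residual degrees of freedom). Genes needed at least 5 counts in 2 libraries, with Benjamini-Hochberg adjustment over the 21014 that did and a threshold of 0.05. In the text, rose and fell mean past that threshold. The samples of a day are described as biological replicates, 2 per day, and they differed beyond sampling noise (chi-square per degree of freedom 8.38 to 13.7). The scripts were tested on simulated data. Gene positions, exon lengths and repeated stretches came from GENCODE release 44 on GRCh38, and promoters from RefSeq. Alternatives were DESeq2 1.42.0, other scalings, filters and samples, a replicate block, a fold change minimum, and leaving out each library. Library values were given for called genes that had a mean of at least 5 CPM and did not overlap, up to 4 in each direction per comparison by fold change, and for the most abundant gene of each role; values of the other genes were added by role after they were seen. The 37 genes, the lists and the tests were chosen with earlier results of these data known.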

Additional observations from a re-analysis of the deposited data

How the results depend on the processing

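Under the alternatives run, none of the 60 calls made on the 37 genes in the 5 comparisons of days changed direction. The count for day 23 against day 16 was 7, and 11 with DESeq2, 11 with library size alone, 2 with a log2 fold change of at least 1, and 4 to 10 when 1 library was left out. For day 31 against day 23 it was 1, and 0 by edgeR with only the 4 libraries compared (3 of the 37 were higher and 1 lower at an unadjusted p under 0.05 in the fit of all libraries, and DESeq2 called 1), and 0 to 1 with 1 library left out. For day 38 against day 31 it was 12, and 3 with a log2 fold change of at least 1, and 3 to 14 with 1 library left out. The counts of 18 for day 45 against day 38 and 22 for day 45 against day 16 stayed within 1.5 times under every alternative and ranged from 14 to 22 and from 19 to 23 with 1 library left out; that of 28 for any day ranged from 24 to 30. Where a day was left with 1 library, that library was assumed to vary like the other days. Replicate numbers do not pair the libraries: same-numbered libraries deviated from their day means with correlations of -0.032 to 0.020 over 10 pairs of days. With a replicate block, the counts were 9, 1, 13, 21, 23 and 30, all 60 calls were kept and 7 were gained. DESeq2 gained 10: HSPA4, HSP90AB1, DNAJA1 and DNAJB6 for day 23 against day 16, DNAJB6 for day 38 against day 31, HSP90AB1, BAG2 and FKBP4 for day 45 against day 38, and HSP90AB1 and PTGES3 for day 45 against day 16. With 2 libraries per day, the causes of these differences were not tested.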
